A study of Mus musculus with 8 samples.

Results

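Expressed genes at very wide loci were examined in the adult mouse heart with and without the SoxD transcription factors Sox5 and Sox6. A gene was included when its listed locus spanned over 200 kb and its level, averaged over the 2 genotypes, was at least 1 FPKM (fragments per kilobase of transcript, scaled to the mapped reads). The genes were thus selected on their listed span and on the same pooled FPKM values, 1 per genotype, that are compared below. Of 23100 listed genes, 586 met both conditions, and 1383 had such a locus at any level. RNA came from the cardiac ventricles of 8 mice aged 4.5 months. The 4 control mice (Ctrl) were Sox5fl/fl, Sox6fl/fl and negative for aMHC-Cre, and the 4 double knockout mice (DKO) had the same floxed alleles and were positive for aMHC-Cre. This Cre is driven by a cardiomyocyte promoter, so the other cells of the ventricle keep both genes. No animal-level values were analysed here: each genotype has 1 pooled FPKM value in the authors' deposited tables, with no replicate error, and the sequencing depth is unknown.

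A long gene is mostly intron. RNA polymerase must cross the whole locus before the transcript is complete, and splicing then removes nearly all of what was copied. Many of the longest mammalian genes encode adhesion, cytoskeletal and ion channel proteins of muscle and nerve, and dystrophin is the best known of them in the heart. SoxD proteins bind DNA through an HMG box that recognises a short core motif, written AACAAT or its complement ATTGTT.

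The span needs a caution, because the locus column gives the extent of a bundle of transcripts that several genes can share. The 586 genes lay at 519 distinct loci. Of them, 227 shared their locus entry with at least 1 other listed gene, and a single locus held up to 25 genes. Gene lengths from GENCODE M21, available for 581 of the genes, exceeded 200 kb for 480 and did not for 101. For 410 genes the length was within 10% of the listed span. Examples of small genes inside a wide entry were Gpr22, of 7081 bases in GENCODE and in an entry of 310.5 kb, and Rtn4, of 51385 bases in an entry of 333.1 kb. Lrtm1, of 15438 bases, shared an entry of 816.9 kb with the calcium channel subunit gene Cacna2d3.

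Among tested genes, a call means that the authors' deposited Cuffdiff table gives a q-value no higher than 0.05, and all log2 values here set DKO over Ctrl. The promoters below are 250 bases upstream of the outermost start of 6 called genes, from RefSeq (GRCm38.p6). Dmd, Ctnna3 and Immp2l had the lowest log2 values of the called genes, and Grk5 had the highest. Dpyd and Erbb4 were the only called genes with a matched promoter that held the SOX core in this window. The genes shown were chosen after their values were seen. Capitals mark the SOX core (AACAAT or ATTGTT) and the GC box (GGGCGG or CCGCCC), which is a motif of many broadly active promoters.
Dmd: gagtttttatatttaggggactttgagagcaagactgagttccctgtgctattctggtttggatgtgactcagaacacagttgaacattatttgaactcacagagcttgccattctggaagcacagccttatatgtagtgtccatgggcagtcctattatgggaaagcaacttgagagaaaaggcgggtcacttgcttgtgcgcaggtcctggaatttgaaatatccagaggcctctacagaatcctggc
Ctnna3: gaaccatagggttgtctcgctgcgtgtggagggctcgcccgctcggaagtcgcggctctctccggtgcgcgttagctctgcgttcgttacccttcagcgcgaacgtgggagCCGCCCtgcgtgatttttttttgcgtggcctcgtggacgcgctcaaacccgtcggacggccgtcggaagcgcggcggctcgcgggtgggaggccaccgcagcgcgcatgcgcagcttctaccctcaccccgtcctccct
Immp2l: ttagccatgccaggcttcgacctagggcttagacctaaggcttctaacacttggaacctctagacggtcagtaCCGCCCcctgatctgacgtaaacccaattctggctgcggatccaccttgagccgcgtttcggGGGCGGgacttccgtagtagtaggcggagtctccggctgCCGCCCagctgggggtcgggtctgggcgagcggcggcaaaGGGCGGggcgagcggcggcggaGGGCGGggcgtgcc
Dpyd: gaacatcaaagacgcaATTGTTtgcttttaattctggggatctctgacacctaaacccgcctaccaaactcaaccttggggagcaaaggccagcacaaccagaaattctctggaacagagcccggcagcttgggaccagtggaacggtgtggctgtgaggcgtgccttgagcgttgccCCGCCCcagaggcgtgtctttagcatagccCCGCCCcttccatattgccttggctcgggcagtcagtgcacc
Erbb4: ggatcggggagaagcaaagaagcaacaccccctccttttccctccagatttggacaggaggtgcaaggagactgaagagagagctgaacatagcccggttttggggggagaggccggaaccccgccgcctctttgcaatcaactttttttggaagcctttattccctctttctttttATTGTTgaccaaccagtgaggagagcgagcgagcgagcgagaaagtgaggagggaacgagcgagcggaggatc
Grk5: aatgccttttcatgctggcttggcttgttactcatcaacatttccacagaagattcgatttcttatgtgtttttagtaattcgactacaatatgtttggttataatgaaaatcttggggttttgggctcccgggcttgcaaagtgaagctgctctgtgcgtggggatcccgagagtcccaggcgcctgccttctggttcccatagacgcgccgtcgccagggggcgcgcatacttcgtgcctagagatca
These stretches lie at X:82948620-82948869 for Dmd, 10:63429848-63430097 for Ctnna3, 12:41023840-41024089 for Immp2l, 3:118561930-118562179 for Dpyd, 1:69108060-69108309 for Erbb4 and 19:60889499-60889748 for Grk5. Erbb4 is on the minus strand and the other genes shown are on the plus strand. Dmd and Grk5 held neither motif in this window, Ctnna3 held 1 GC box and Immp2l 5. A RefSeq promoter was matched for 32 of the 39 genes called lower, and the SOX core was in 2 of the 32 (6.25%), against 9.62% of 27025 mouse promoters of the same length. The GC box was in 17 of the 32 (53.1%), against 33.0% of all promoters, and both strands were searched. Median GC content also differed, at 62.8% in the 32 and 52% in all promoters. Over all 586 genes only 432 matched, and over the genes called higher 14 of 21. Both are under 80%, so the motif counts of these sets are void. The genes called lower were thus not set beside all wide genes. Of the 91 genes over 500 kb, some of which were called lower, 73 matched. The GC box was in 35 of the 73 (47.9%) and the SOX core in 2 (2.74%). Neither share can be called particular to the genes called lower. A match is a description of the sequence and says nothing about binding.

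More of these wide genes were lower than higher in DKO ventricles, the opposite of the balance over all genes. Of 585 tested, 39 (6.67%) were called lower and 21 (3.59%) higher. Over all 12133 tested genes, 3.06% were called lower and 4.30% higher, 7.36% in all. Among 11329 tested genes of the same minimum level at loci of at most 200 kb, 326 (2.88%) were lower and 475 (4.19%) higher. Over all wide genes together the centre was close to that of all tested genes, with a median log2 of -0.02 against -0.004. Of the 585, 325 (55.6%) were below 0. In the widest classes the median was lower, at -0.07 from 500 kb to 1 Mb and -0.22 over 1 Mb. In bulk tissue, fewer cells of a type and less RNA per cell cannot be told apart. The level limit and the ratios use the same pooled values, so these shares are descriptions with no test of their own. Of the 60 calls, 28 carried 5e-05, the smallest p-value in the table, and their shared q of 0.00158 does not rank them. With a stricter q under 0.01, 23 were lower and 14 higher, where 1.58% and 2.74% of all tested genes were (4.32% together). By coding sequence, 22 of 607 tested were lower and 12 higher, beside 1.66% and 2.98% of all 12887 tested coding sequences (4.64% together).

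The share of genes called lower was greatest among the widest loci. It was 5.42% between 200 and 300 kb (16 of 295) and 4.52% between 300 and 500 kb (9 of 199). It was 10.8% between 500 kb and 1 Mb (7 of 65) and 26.9% over 1 Mb (7 of 26). The share called higher went the other way, at 4.41%, 3.52%, 1.54% and 0% in the same order of spans. Below 200 kb the share lower was between 2.51% and 4.19%, and only the class from 100 to 200 kb, with 47 lower and 42 higher of 1123, had more lower than higher genes. The median log2 was 0.00, -0.04, -0.07 and -0.22 over the 4 classes of wide loci. Spearman's rho of span with log2 was -0.20 over the 585 wide genes and -0.0004 over the 11329 others. With GENCODE length in place of the listed span it was weaker, at -0.14 over 580 wide genes. These correlations are across genes, rest on 1 pooled FPKM value per genotype and carry no p.

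**Figure D1:**
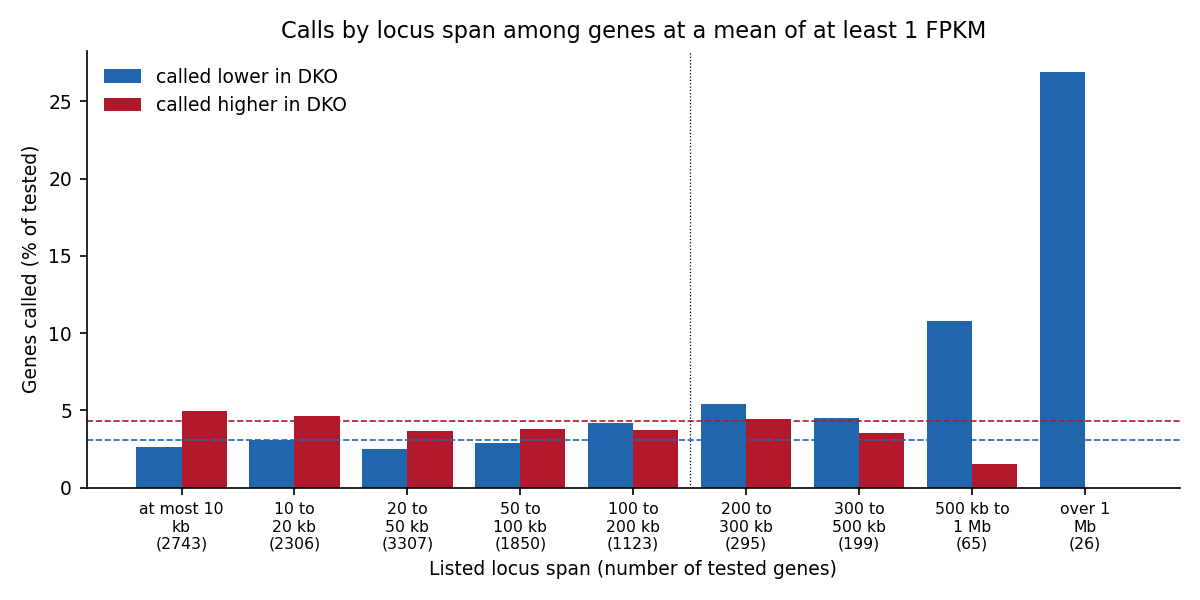
Share of tested genes called lower (blue) and higher (red) in DKO, in percent, by listed locus span, for genes at a mean of at least 1 FPKM. Dashed lines mark the shares over all tested genes, 3.06% lower and 4.30% higher, and the dotted line marks 200 kb; the blue bar over 1 Mb reaches 26.9% and has no red bar beside it.

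Counts were also made when a gene's own length replaced the shared entry. By GENCODE length, 6 of 18 genes over 1 Mb and 8 of 59 between 500 kb and 1 Mb were called lower. Of the 26 genes in the class over 1 Mb, several are small genes in wide entries, such as 6 entries of a zinc finger gene cluster around Gm14288, Cstf2t, Trim32 and Bend5, and none of these was called. Among loci listed for 1 gene only, 3 of 6 over 1 Mb (Magi2, Erbb4 and Pard3b) and 4 of 32 between 500 kb and 1 Mb were lower. Magi2 and Erbb4 were under 1 FPKM in DKO and met the level limit only through Ctrl, so the limit itself favoured a lower call for them. With at least 1 FPKM in both genotypes, 12 of 88 genes over 500 kb were lower. Genes at entries of several genes made up 15 of the 39 called lower and 5 of the 21 called higher. At these 20 entries, 8 other genes were tested and none was called.

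**Figure D2:**
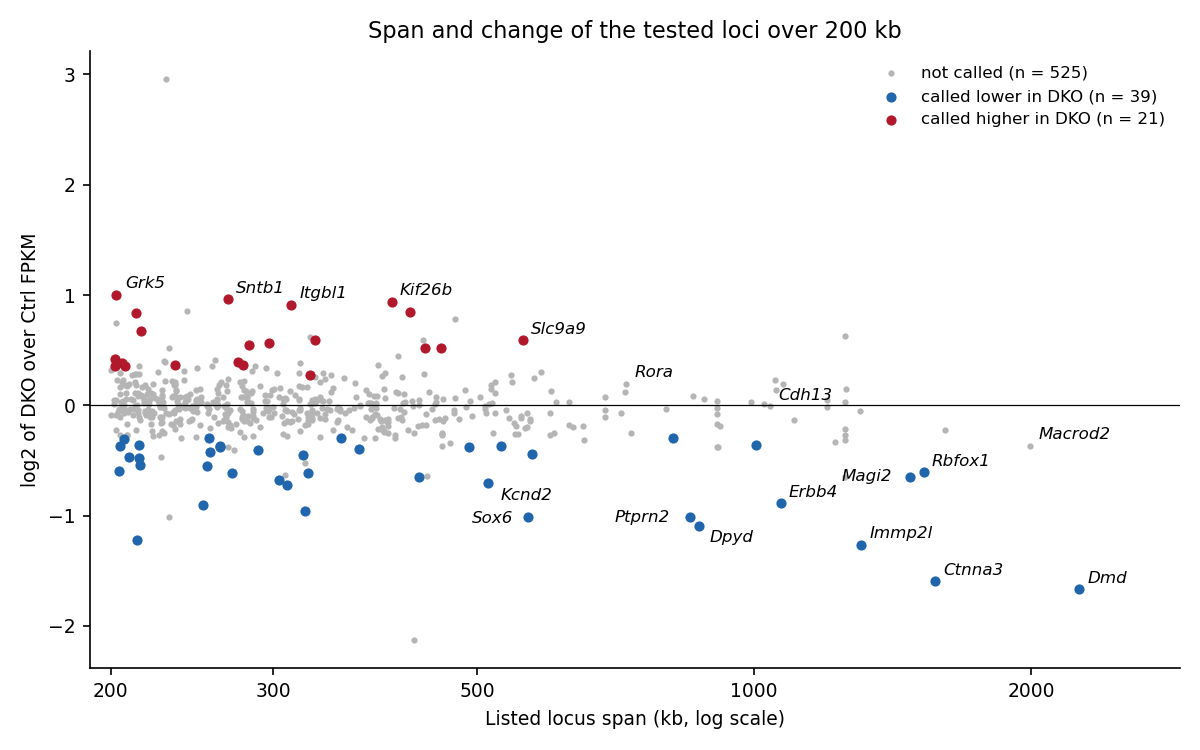
Each point is 1 of 585 tested genes, by listed locus span in kb (log scale) and log2 of DKO over Ctrl FPKM. Called genes over 500 kb lie below 0 apart from Slc9a9 at 0.59, and the widest locus, Dmd, has the lowest called value at -1.66.

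Dmd encodes dystrophin, which ties the actin cytoskeleton to the muscle membrane, and it was both the widest locus and the called gene with the lowest ratio. It measured 9.41 FPKM in DKO versus 29.8 in Ctrl, 3.17-fold lower. In mm9 its entry on chromosome X runs from 80194209 to 82450389, or 2256 kb. Ctnna3, on chromosome 10 from 62892846 to 64466415, encodes alpha-T-catenin of the intercalated disc. Its level was 5.56 FPKM in DKO versus 16.8 in Ctrl, 3.02-fold lower. Immp2l, on chromosome 12 from 41750677 to 43056573, encodes a peptidase of the inner mitochondrial membrane. It was at 5.48 FPKM in DKO versus 13.1 in Ctrl, 2.40-fold lower. In the authors' deposited table, the q-value of all 3 was 0.00158. Each shared its entry with 1 other gene that was not tested, namely Tsga8, Lrrtm3 and Lrrn3, at 0.0319 to 0.119 FPKM.

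The other called genes over 1 Mb covered splicing, scaffold and receptor genes. Rbfox1, a splicing regulator of heart and brain, was at 11.2 FPKM in DKO versus 17.0 in Ctrl (log2 -0.60). Magi2, a membrane scaffold gene, was at 0.899 and 1.41 FPKM (log2 -0.65). Erbb4, the neuregulin receptor of cardiomyocytes, was at 0.927 and 1.71 FPKM (log2 -0.88). Pard3b, a cell polarity gene, was at 2.45 and 3.16 FPKM (log2 -0.36). Magi2 and Erbb4 were near the minimum level, so their ratios rest on low values.

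Between 500 kb and 1 Mb, the genes called lower included enzymes, a channel and a targeted gene. Dpyd, which starts pyrimidine breakdown, was at 1.97 FPKM in DKO versus 4.20 in Ctrl (log2 -1.09). Ptprn2, a receptor-type phosphatase of secretory vesicles, was at 6.01 and 12.2 FPKM (log2 -1.02). Kcnd2, the Kv4.2 pore subunit of the transient outward potassium current, was at 5.58 and 9.09 FPKM (log2 -0.70). Rabgap1l, a regulator of Rab GTPases, had a log2 of -0.44. Cdkal1, a tRNA-modifying enzyme, had -0.37, and Lrtm1 had -0.30. The targeted gene Sox6, on chromosome 7 from 122614858 to 123182258, was at 1.69 and 3.39 FPKM (log2 -1.01), and without it 13 genes over 500 kb were lower. Sox5, also targeted, had an entry of 381.1 kb but was below the level limit at 0.497 and 0.369 FPKM and was not tested. Slc9a9, an endosomal sodium/proton exchanger gene, was the exception in direction at 2.17 and 1.44 FPKM (log2 0.59, with a deposited q of 0.0190 from the authors).

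Many of the widest loci had no call. Macrod2, which encodes an enzyme that removes ADP-ribose, had the next widest entry after Dmd (1995 kb) and was at 1.48 FPKM in DKO versus 1.91 in Ctrl (authors' deposited q-value 0.410). Fhit, a dinucleoside hydrolase gene at 1612 kb, was at 1.23 and 1.44 FPKM (authors' deposited q-value 0.868). The adhesion gene Cdh13, at 1040 kb, was at 101 FPKM in both genotypes. Pde4d, a phosphodiesterase gene, was at 8.31 and 8.61 FPKM, and Prkg1, a cGMP-dependent kinase gene, at 3.84 and 3.71. Of 26 genes over 1 Mb, 19 were not called, and 18 of the 26 were below 0. A q above the threshold does not show that these levels were equal.

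Genes called lower at loci of 200 to 500 kb included signaling and vascular genes. Angpt1, the ligand of the endothelial receptor Tie2, was at 7.93 FPKM in DKO versus 14.8 in Ctrl (log2 -0.90). Ssbp2, which binds single-stranded DNA, was at 3.13 and 6.08 FPKM (log2 -0.96), and Ralgapa2, an inhibitor of Ral GTPases, at 21.4 and 32.8 (log2 -0.62). Listed under clone symbols, A130040M12Rik, at 16.3 and 38.0 FPKM, and 2610528E23Rik, at 47.5 and 75.9, were lower as well. A130040M12Rik shares its entry with Zfp808, which was not called at 1.10 and 0.862 FPKM. The entry of 2610528E23Rik is shared with Filip1l, which was not called at 17.1 and 16.2 FPKM. Gpr22, an orphan receptor gene of the heart, was at 12.7 and 21.1 FPKM (log2 -0.72). The called genes with the highest levels were Lmo7, an adherens junction gene, at 112 and 144 FPKM, and, among those higher in DKO, Pam. The 10 lower genes of this class not described elsewhere, Wbscr17, Hs3st5, Gsg1l, Rnls, Fam19a5, D630037F22Rik, Adamts3, Inadl, Ppp1r9a and Rap1gap2, had log2 values from -0.65 to -0.30.

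**Figure D3:**
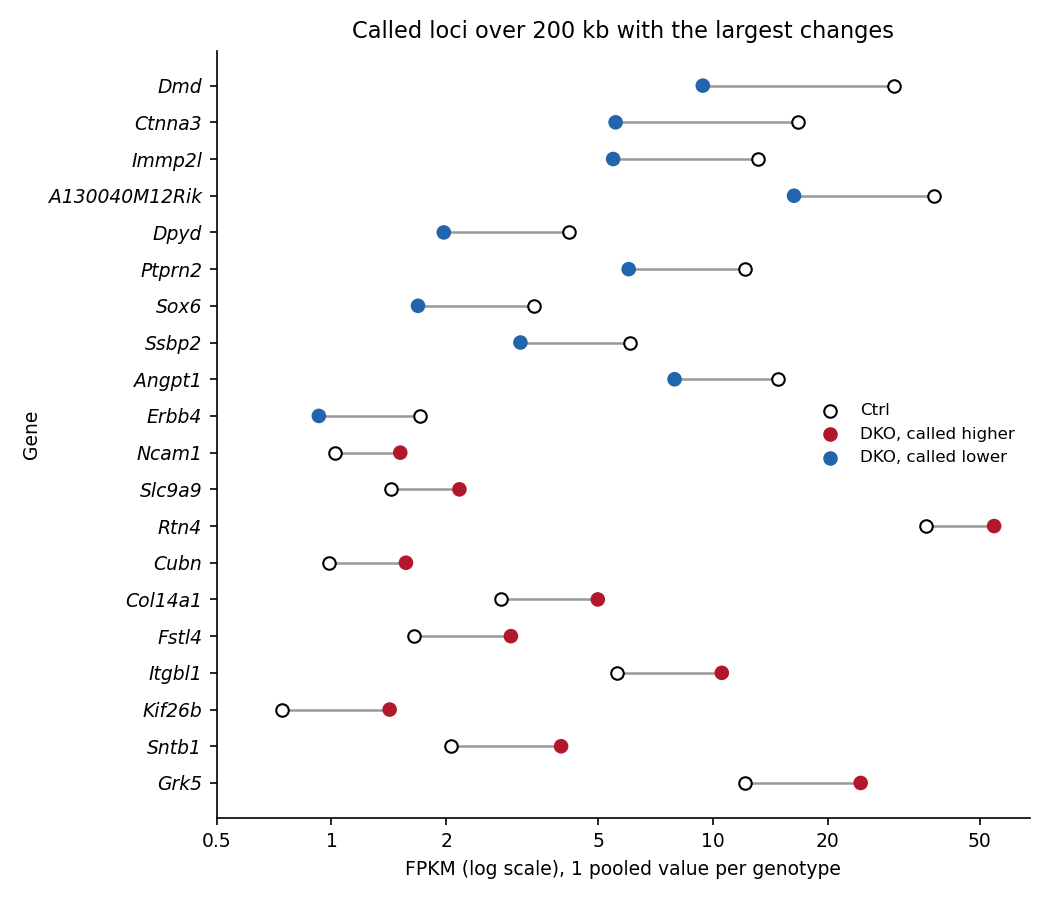
FPKM in Ctrl (open) and DKO (filled) for the 10 called genes with the lowest and the 10 with the highest log2, on a log axis; each point is 1 pooled value per genotype. Dmd, Ctnna3 and Immp2l show the longest lines, and the falls reach further than the rises, of which Grk5 is the largest at 24.4 against 12.2 FPKM.

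Of the 21 genes called higher, 20 were at loci under 500 kb, and 3 were in the matrix list, 3 in the neural adhesion list, 1 in the membrane list and 1 in the kinase list. Grk5, a kinase that desensitises G protein-coupled receptors, was at 24.4 FPKM in DKO versus 12.2 in Ctrl, 2.01-fold higher. Its entry on chromosome 19 runs from 60965652 to 61168458. Sntb1, the syntrophin beta 1 gene of the dystrophin complex, was at 4.00 and 2.05 FPKM (log2 0.96), the opposite direction to Dmd. Kif26b, a kinesin gene, was at 1.42 and 0.740 FPKM (log2 0.94), and Itgbl1, a secreted integrin-like gene, at 10.5 and 5.60 (log2 0.91). The collagen gene Col14a1 was at 4.99 and 2.79 FPKM and the follistatin-like gene Fstl4 at 2.95 and 1.65, both with a log2 of 0.84. Cubn, an endocytic receptor gene, was at 1.57 and 0.983 FPKM (log2 0.67). Kif26b and Cubn were under 1 FPKM in Ctrl and met the level limit only through DKO. The limit itself thus favoured a higher call for them. Rtn4, which encodes a protein that shapes the endoplasmic reticulum, had a log2 of 0.59 (54.6 and 36.2 FPKM) and the adhesion gene Ncam1 0.56. Pam, whose enzyme amidates peptides and is abundant in the heart, was at 366 and 279 FPKM (log2 0.39). The genes not described elsewhere, Shroom3, Atp8a2, Adamts2, Efna5, Antxr1 and the joint entry of Akap2 and Palm2, had log2 values from 0.28 to 0.55.

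By function, 215 of the genes fell in 12 lists, 4 of muscle and 8 of other functions, that were drawn up with earlier results known. Among 48 muscle genes, 5 were called lower and 1 higher, and 39 were below 0 (81.3%, median log2 -0.09). Among 167 nonmuscle genes, 14 were lower and 7 higher, and 94 were below 0 (median log2 -0.03). The 370 tested genes in no list had 20 lower and 13 higher. The same muscle lists at loci of at most 200 kb had 11 lower and 7 higher of 141, and the nonmuscle lists 27 lower and 41 higher of 343. The share of muscle genes called lower was thus 10.4% at wide loci and 7.80% at the others, against 3.06% of all tested genes. The share of nonmuscle genes called lower was also above 3.06%, at 8.38% and 7.87%, so a raised share was not particular to muscle genes. The wide muscle genes called lower include Sox6, a gene targeted by the knockout, so its call is not independent of the design.

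Within the muscle genes, the calls split by span. All 5 called lower (Dmd, Ctnna3, Sox6, Kcnd2 and Rbfox1) were among the 13 with a locus over 500 kb, of which 12 were below 0 with a median log2 of -0.25. Sox6 is a targeted gene, so its call carries no information on span or function. Of the 35 muscle genes between 200 and 500 kb, none was lower and Sntb1 was higher, with a median of -0.06. The nonmuscle genes had 5 of 36 lower over 500 kb (Immp2l, Dpyd, Erbb4, Magi2 and Rabgap1l) and 9 of 131 between 200 and 500 kb. Whether the muscle and nonmuscle genes differ was not tested, since genes are not replicates of a genotype.

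**Figure D4:**
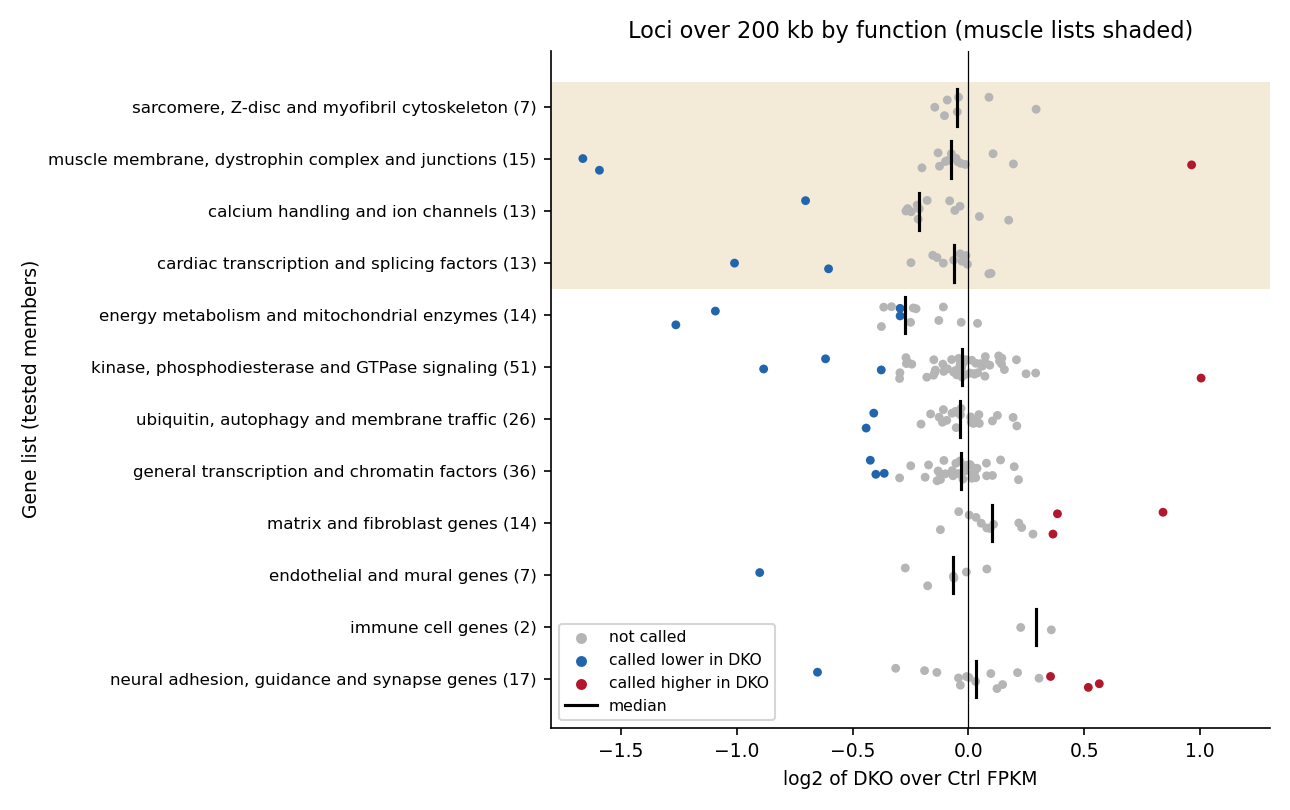
log2 of DKO over Ctrl FPKM for each listed gene at a wide locus, by function list; black bars are medians, muscle lists are shaded and points are spread vertically at random. The energy and the calcium and channel lists have the lowest medians, -0.27 and -0.21, and Dmd and Ctnna3 stand far left of the other membrane genes.

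In the membrane, dystrophin complex and junction list, 2 of 15 genes were lower (13.3%) and 1 higher (6.67%). Over all tested genes these shares were 3.06% and 4.30%. At loci of at most 200 kb, 1 of the 31 genes of this list was lower and none higher. Apart from Dmd, Ctnna3 and Sntb1, the genes of this list had log2 values between -0.20 and 0.19. Utrn, the dystrophin paralog utrophin, was at 14.7 FPKM in DKO versus 14.8 in Ctrl, and the laminin gene Lama2, at 635.7 kb, was at 32.0 and 36.7. The cytoskeletal linker genes Dst (47.8 and 48.9 FPKM) and Ank3 (11.7 and 12.5) were not called.

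The sarcomere and Z-disc list had no call among 7 genes, with a median log2 of -0.05. Over all tested genes 7.36% were called, so no call among so few says little. At loci of at most 200 kb, 6 of the 49 genes of this list were higher and 2 lower. Myo18b, an unconventional myosin gene, was at 70.4 FPKM in DKO versus 72.5 in Ctrl. In the calcium and ion channel list, 1 of 13 genes, Kcnd2, was lower, while 11 were below 0 with a median of -0.21. Ryr2, the calcium release channel of the sarcoplasmic reticulum at a locus of 553.8 kb, was at 199 and 238 FPKM without a call. Cacna1c, the pore of the L-type calcium channel, was at 55.4 and 62.7 FPKM, and Asph, whose locus encodes junctin, at 127 and 150. The 32 genes of this list at loci of at most 200 kb had 6 lower and a median of -0.11. In the cardiac transcription and splicing list, Rbfox1 and the targeted gene Sox6 were the 2 lower genes of 13. At loci of at most 200 kb, 2 of the 29 genes of that list were lower and 1 higher. Camta1 (40.2 and 41.2 FPKM, 802.2 kb) and Meis2 (6.31 and 6.59) were not called.

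Most genes of the energy metabolism and mitochondrial enzyme list were below 0 at wide and at narrower loci alike. The list is broader than energy supply, since it also holds Dpyd, Fhit and Macrod2, described above. Of its 14 genes at wide loci, 4 were lower and 13 were below 0 (median log2 -0.27). Of its 46 genes at the others, 18 were lower and 1 higher (median -0.23). Besides Immp2l and Dpyd, the lower ones were Gbe1, the glycogen branching enzyme gene, at 28.8 FPKM in DKO versus 35.3 in Ctrl, and Pcca, a propionyl-CoA carboxylase gene, at 44.2 and 54.2. Both had log2 values near -0.29. Cox6c, a respiratory chain subunit gene of 12361 bases in an entry of 566.7 kb, was in none of the lists. It had the highest level of all genes studied here, 1931 and 2216 FPKM, and was not called.

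Matrix and fibroblast genes at wide loci were above 0 in 12 of 14 cases, with 3 higher and none lower. Col14a1 was joined by the microfibril gene Fbn1 (15.5 and 11.9 FPKM, log2 0.38) and the RNA-binding protein gene Bicc1 (7.60 and 5.90, log2 0.36). At loci of at most 200 kb, 22 of 54 matrix genes were higher, with a median of 0.24 against 0.10 at wide loci. The neural adhesion list had 3 higher (Ncam1, Cdh4 and Magi3) and 1 lower (Magi2) of 17, and 1 higher and 1 lower of 16 at loci of at most 200 kb. Only 2 immune genes, Dock8 (2.80 and 2.40 FPKM) and Dock10 (1.53 and 1.19), were at wide loci, against 36 at the others, of which 15 were higher.

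Fibroblast and macrophage markers were higher beside these lists. Of 9 fibroblast markers 6 were called, all higher, and their summed level was 735 FPKM in DKO versus 569 in Ctrl. Of 9 macrophage markers 8 were called, all higher, with sums of 407 and 263 FPKM. None of 10 cardiomyocyte markers was called, 9 were below 0, and their sum was 83989 versus 96831 FPKM (0.867-fold). None of 8 endothelial markers was called, with sums of 459 and 486 FPKM. Atrial markers summed to 3.82 and 4.27 FPKM, and no marker was at 0. The part of these marker levels in the results was not tested.

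The kinase, phosphodiesterase and GTPase list, the longest at 51 genes, had 3 lower (Erbb4, Ralgapa2 and Prkce) and Grk5 higher. Its share lower, 5.88%, was near the 6.67% of all wide genes, beside 3.06% of all tested genes, and at loci of at most 200 kb 5 of 43 (11.6%) were lower. Prkce, the epsilon isoform of protein kinase C, was at 6.94 and 9.01 FPKM. General transcription factors had 3 lower of 36, namely Pknox2 (log2 -0.42), Zbtb20 (-0.40) and Mitf (-0.36), a share of 8.33%, and 1 lower of 61 (1.64%) at loci of at most 200 kb. The ubiquitin, autophagy and traffic list had 2 lower of 26 (7.69%), Rabgap1l and the autophagy gene Atg10 (15.7 and 20.9 FPKM). Of 7 endothelial and mural genes, Angpt1 was lower and the other 6 were not called, and none of 46 was called at loci of at most 200 kb.

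Genes at wide loci were listed with more isoforms and longer transcripts than others. The median gene at a wide locus had 2 isoforms and a longest transcript of 4777 bases, which is 1.60% of the median span of 298.7 kb. At loci of at most 200 kb the medians were 1 isoform and 2719 bases, at a median span of 23.3 kb. Among wide genes, 16 of 237 with 1 isoform were lower and 12 higher, and 7 of 121 with 2 isoforms were lower and 4 higher. With 3 or 4 isoforms, 10 of 123 were lower and 2 higher, and with 5 or more, 6 of 104 were lower and 3 higher. The median log2 over these classes was 0.01, -0.04, -0.06 and -0.03, all within 0.1 of 0. At loci of at most 200 kb the share lower was 2.38%, 4.14%, 3.04% and 3.43% in the same classes. The share lower did not rise step by step with the isoform number at either kind of locus. The share below 0 was 47.3%, 57.0%, 64.2% and 62.5% over the classes of wide genes. Spearman's rho with log2 over the wide genes was -0.13 for isoform number, 0.02 for longest transcript length and -0.20 for span. At loci listed for 1 gene, it was -0.16 for both isoform number and span.

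Level also varied with the calls. The median wide gene was at 6.65 FPKM, against 10.6 at loci of at most 200 kb, and the median over 1 Mb was 3.29. Mean FPKM had the same rho with log2 in both sets, -0.22. Within each level class the share lower was greater at wide loci: 4.96% against 1.34% at 1 to 5 FPKM, 7.91% against 1.97% at 5 to 20 FPKM, and 7.81% against 5.41% above 20 FPKM. The shares higher in the same classes were 4.13% against 5.84%, 3.72% against 3.39%, and 2.34% against 3.78%.

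Calls were also counted by isoform, which could not show for every called gene which transcript carried its change. The 586 genes had 1768 listed isoforms, of which 702 were new splice forms assembled by the authors (class code j). Of 1184 tested isoforms, 20 were called lower and 13 higher, where 1.12% and 1.90% of all 18490 tested isoforms were (3.02% together). Of the 60 called genes, 31 had a called isoform and none had one in the opposite direction. However, 16 of the 39 genes called lower and 12 of the 21 called higher had 1 listed isoform. In these the isoform is the gene, so its direction could not differ. The main isoform, that with the highest mean FPKM, was below 0 in 38 of the 39 genes called lower and above 0 in all 21 called higher. The exception was Pitpnc1, a phosphatidylinositol transfer gene, whose main isoform was at 10.7 FPKM in DKO versus 10.1 in Ctrl while the gene was at 20.9 and 27.0. These main isoform counts include the genes with 1 isoform. In wide genes with 2 or more isoforms, the main one held a median of 61.5% of the summed isoform FPKM. The shared direction was thus largely fixed in advance.

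Dmd and Grk5 were the only genes with 2 called isoforms. The 13852-base Dmd transcript was at 2.01 FPKM in DKO versus 10.9 in Ctrl, and a 4440-base form from another start group was at 5.51 and 16.9. Another form of 13820 bases was at 1.89 and 2.07 FPKM and was not called. Both Dmd start groups were lower, at 5.51 against 16.9 and 3.90 against 12.9 FPKM (authors' deposited q-value 0.00223 for both). The 4440-base form is the only one listed for its start group and has class code j. Reads are divided between forms that share exons, so separate falls at each start are not shown. The Grk5 isoforms of 2212 bases (also class code j) and 3167 bases, again from separate start groups, were at 16.7 against 8.64 and 7.66 against 3.53 FPKM.

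In the other genes at most 1 isoform was called. The Rbfox1 isoform of 4085 bases was at 5.51 FPKM in DKO versus 12.4 in Ctrl, while that of 4138 bases, from the same start group, was at 4.36 and 4.26. The Ctnna3 isoform of 3681 bases was at 5.33 and 14.5 FPKM, and its 2840-base isoform was listed at 0 in DKO and at 1.55 in Ctrl without a call. The remaining Ctnna3 isoform was not tested at 0.231 and 0.736 FPKM. For Sox6, the 8196-base isoform was called at 0.896 and 2.20 FPKM, whereas its start group as a whole was not called at 1.60 and 2.54. Rtn4 had 1 called isoform, of 5558 bases, at 21.0 and 11.4 FPKM, and its 1156-base and 6165-base isoforms were at 23.2 versus 15.6 and 7.69 versus 3.87 without a call. Cuffdiff divides reads between isoforms that share exons, and the error of that division is not given per isoform.

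**Figure D5:**
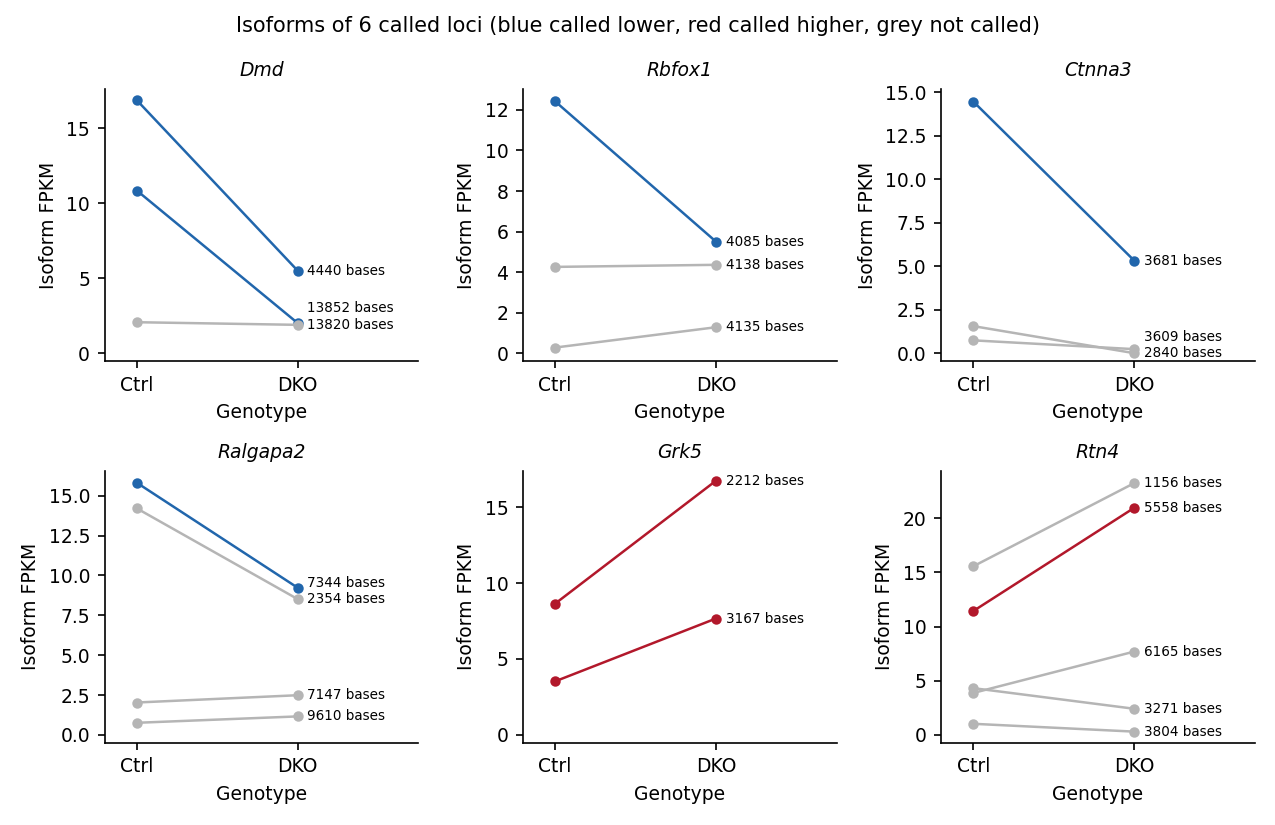
Isoform FPKM in Ctrl and DKO for 6 called genes, each line 1 isoform with its length in bases, for isoforms at a mean of at least 0.25 FPKM. Both called Dmd lines fall and both Grk5 lines rise, while in Rbfox1 the 4138-base isoform runs flat at 4.26 and 4.36 FPKM beside the falling 4085-base isoform.

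A few of the largest ratios belonged to small RNAs in wide entries and were not called. Mir378b was at 21.4 FPKM in DKO versus 93.6 in Ctrl (log2 -2.13), and the joint entry of Mir5113 and Tnrc6b was at 64.1 and 8.23 (log2 2.96). Mir703 was at 213 and 124 FPKM, and Mir491 was listed at 0 in DKO and at 31.9 in Ctrl and was the 1 gene of 586 without a test. These were named after their values were seen, and FPKM of transcripts of about 100 bases depends strongly on the length correction.

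Of the 12 genes nearest to the limits of the selection, only Camk1d was called. Just inside the span limit were Pcbp3 (200.1 kb, 1.60 and 1.28 FPKM), Pbx3 (200.1 kb, 5.52 and 5.88) and Nrd1 (201.5 kb, 73.6 and 71.2), and just outside were Atp9b (199.9 kb, 8.31 and 7.87), Slc25a26 (16.7 and 19.7) and Lrig1 (13.05 and 14.9), the last pair at 199.8 kb. Just inside the level limit were Igsf10, Hmga2-ps1 and Hhat, with means of 1.01, 1.02 and 1.02 FPKM. Just outside were Gm13304 (0.999535 FPKM), Camk1d (0.990) and Zfp808 (0.981), and Camk1d was higher.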

How the data were processed

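Ventricular RNA of 4 Ctrl and 4 DKO mice was sequenced as single-end Illumina libraries, per the labels' protocols. Per the submitters' processing notes, the authors' tools were TopHat2 2.0.9, Cufflinks 2.1.1 and Cuffdiff 2.1.1 with mm9; for their annotation and settings, the sources used here give nothing. The deposited FPKM values are 1 per genotype, pooled by the authors, per the file headers. The deposited p-values and q-values are from the authors' Cuffdiff comparison, per the file headers. The deposited log2 values set Ctrl over DKO, per the file headers, and were recomputed here as DKO over Ctrl from FPKM. The span was taken from the locus column and isoform lengths in bases from the isoform table.

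Genes at a q of at most 0.05 were called, and no test across animals was run, since every deposited value is pooled over animals. Counts and medians were set beside those over all tested genes. The counting steps were tested on simulated data. The members and the gene lists were chosen with earlier results of these data known. Named genes were Sox5 and Sox6, the 5 widest, the 10 called genes with the lowest and the 10 with the highest log2, the 5 at the highest level, up to 4 called genes per list (or the 2 at the highest level), 3 genes on each side of a threshold, and genes with 2 called isoforms or with isoforms of at least 0.5 FPKM that differed by over 2 in log2. A summary stands for some of them, 1 is not reported here, and genes named outside the rule were chosen after their values were seen, among them Pde4d, Prkg1, Cdh13, Pard3b, Cdkal1, Lrtm1, Gpr22, Slc9a9, Ryr2, Utrn and the small RNAs. Loci in mm9 count from 1. GENCODE M21 lengths and RefSeq promoters are of another build, GRCm38, and were matched by symbol, with no conversion of coordinates. Computations used Python 3.11.15, pandas 2.3.3, numpy 2.4.6 and matplotlib 3.10.9.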

Additional observations from a re-analysis of the deposited data

How the results depend on the processing

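Of the wide genes, 39 were called lower and 21 higher; 14 lower were over 500 kb and 25 between 200 and 500 kb, 23 had 1 or 2 isoforms and 16 had 3 or more, and 5 were muscle and 14 nonmuscle genes. With q under 0.01, 23 were lower in all, 12 between 200 and 500 kb, 11 with 1 or 2 isoforms and 9 among nonmuscle genes. With the span limit at 100 kb, 86 were lower and 63 higher; at 300 kb, 23 and 8; at 500 kb, 14 and 1. With a mean of at least 5 FPKM, 11 were higher, 9 lower were over 500 kb and 15 lower had 1 or 2 isoforms. Main isoforms gave 19 lower and 11 higher, and coding sequences 22 and 12. Without loci listed for several genes, an alternative chosen after seeing the data, 24 were lower: 7 over 500 kb, 14 with 1 or 2 isoforms, 10 with 3 or more, 2 muscle and 9 nonmuscle. The cause of these shifts beyond the smaller sets was not tested. The other counts stayed within 1.5 times, among them all 8 with a GENCODE length over 200 kb, also chosen after seeing the data. Of the 60 called genes, 60 kept a like log2 with 0.1 FPKM added or after rescaling to a median of 0, and 11 moved by over 1.5 times with 1 FPKM added. With the main isoform, 11 moved likewise and Pitpnc1 reversed, to a log2 of 0.087, while genes with 1 listed isoform could not move. No paired analysis was possible because the tables hold 1 value per genotype, and leaving out each replicate was not run for the same reason. Depth is unknown, so no detection limit is given.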
